A study of Mus musculus with 12 samples.

Results

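Plasmacytoid dendritic cells of the neonatal mouse liver are described here, in mice made anemic by repeated blood removal and in control mice. Members were chosen cell by cell from raw UMI counts, the counts of distinct tagged RNA molecules. A cell was kept if it held 500 to 50000 UMIs with at most 20% from mitochondrial genes. It was a member if it held at least 2 UMIs of Siglech, at least 2 of Bst2, Tcf4 and Irf8 together, at most 1 of the B cell genes Cd79a and Ms4a1, and none of Cd3e, C1qa, Stab2 and Elane. The rule found 2579 members among 202557 kept cells, 1.27% of them. Livers came from C57BL6/J pups at postnatal day 11, 6 naive control mice and 6 with phlebotomy-induced anemia (PIA), each sequenced as its own library. PIA pups lost 20 µL of blood per g of body weight from the facial vein every other day from day 2 to day 10, which lowered the hematocrit to 20% to 24%. Control pups received a daily needle stick without blood loss. Both groups had the same strain and age, and pups of each litter were assigned at random to both. Livers were digested with enzymes before capture, and no sort or gate on immune cells was named.

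Plasmacytoid dendritic cells are round, circulating cells of the innate immune system that develop in the bone marrow and, before and shortly after birth, also in the liver. They detect viral RNA and DNA in endosomes through Toll-like receptors 7 and 9, which signal through Myd88 and Irf7 and make these cells known for releasing large amounts of type I interferon. Tcf4 is the transcription factor that sets their identity, and they share a set of transcripts with B cells, while presenting antigen on class II molecules less than conventional dendritic cells do.

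The genes used by the rule were measured as a description, since they chose the cells. Siglech, a surface lectin, reached 1408 ± 37.2 CPM in control and 1426 ± 122 CPM in anemic members (mean ± SD, n = 6 mice each, CPM, the UMIs of a gene per 1000000 UMIs of the members). Bst2, an interferon-induced membrane protein, stood at 1514 ± 139 and 1490 ± 256 CPM. Tcf4 stood at 4029 ± 375 and 4365 ± 343 CPM, and Irf8, a transcription factor of dendritic cell development, at 685 ± 78.4 and 841 ± 150 CPM. Members held 2 to 23 Siglech UMIs with a median of 4, and a median of 18 UMIs of Bst2, Tcf4 and Irf8 together. Just inside the threshold were 538 members with exactly 2 Siglech UMIs (304 control, 234 anemic), and just outside it were 480 cells with 1 Siglech UMI that met every other condition (260 control, 220 anemic). Only 4 members stood at exactly 2 UMIs of the 3 partner genes, and no cell was left out by that condition alone. The B cell condition alone left out 69 cells, the condition on Cd3e, C1qa, Stab2 and Elane alone 335, and both together 12. The cells left out had more UMIs (medians of 5332, 4540 and 7191) than the members (median of 2827).

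Genes that the rule did not use also set the members apart from all other kept cells, as a description of the cells chosen. Ccr9, a chemokine receptor for homing to gut and thymus, reached 1150 ± 153 CPM in members and 7.18 ± 2.23 CPM in all other cells (mean ± SD, n = 12 mice). Grm8, a glutamate receptor, stood at 1446 ± 218 against 7.04 ± 2.45 CPM, and Cox6a2, a subunit of the respiratory chain, at 709 ± 92.4 against 5.24 ± 1.53 CPM. Klk1, a kallikrein protease, and Pacsin1, an adaptor of membrane trafficking, reached 366 ± 78.1 and 637 ± 45.0 CPM. Among these 15 leading genes, conventional dendritic cells held at most 19.4 CPM, for Ccr9, and B cells at most 9.48 CPM, for Pacsin1. In the 272 conventional dendritic cells of type 2 alone, Cd209d reached 87.6 ± 61.3 CPM against 132 ± 26.1 CPM in members.

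**Figure D1:**
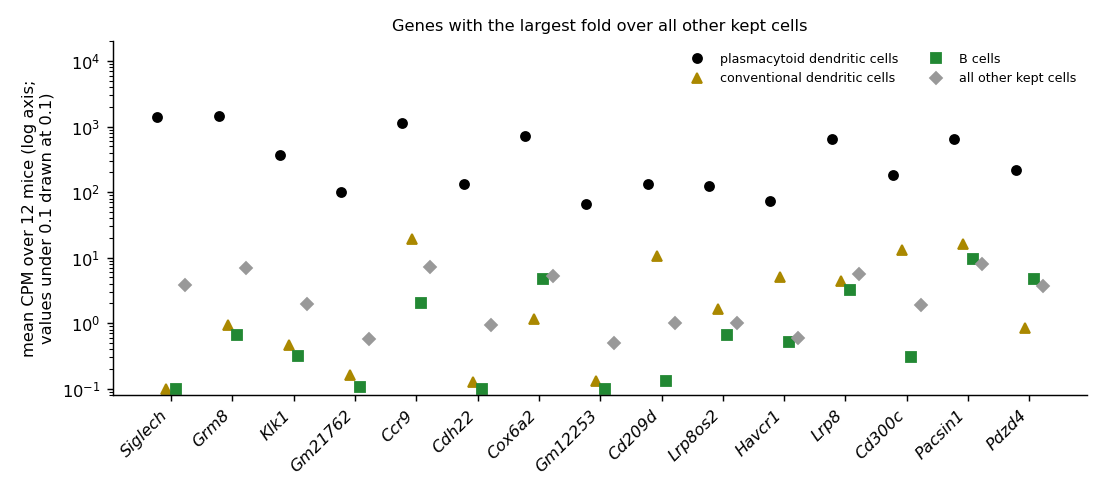
Mean CPM over 12 mice on a log axis for the 15 genes with the largest fold of members over all other kept cells and at least 50 CPM in members; points stand for plasmacytoid dendritic cells, conventional dendritic cells, B cells and all other kept cells. Siglech was used to choose members and to define the comparison cells, so its values there are set by construction. The members stand highest for all 15 genes, and Ccr9 and Pacsin1 are the highest of them in conventional dendritic cells.

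The libraries ran from 46252146 to 74545930 UMIs, and 13936 to 21008 of their cells were kept; the members of a mouse together held 479503 to 924993 UMIs. Erythroid cells were 1.84% to 15.8% of the kept cells of control and 11.4% to 34.0% of those of anemic mice. Between 5.73% and 11.6% of control members and between 11.1% and 15.6% of anemic members were called doublets, and Pf4, Dnase1l3, H2-Aa and Dntt were called as well without them. Of 197684 distinct barcodes, 4791 occurred in more than 1 library, with 49 to 120 shared by any pair, and 132 members carried such a barcode. Xist exceeded the Y-linked genes in 4 control and 2 anemic libraries, and the part of sex in the results was read with Y-linked expression as a covariate, which gave 28 called genes, 18 of them among the 22 reported below. Anemic mouse 2 held the highest summed level of the interferon-stimulated, hypoxia and megakaryocyte lists, so results on them are given without it too. Nothing in the labels says more of how the mice relate, and p-values measure the spread between these 12 mice.

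The first question was whether PIA changed how many plasmacytoid dendritic cells the liver held. Members per mouse numbered 192 to 248 in control (median 220.5) and 141 to 253 in anemic mice (median 206.5). Their share of kept cells ran from 1.26% over a median of 1.37% to 1.63% in control mice and from 0.795% over 1.25% to 1.51% in anemic mice. The groups overlapped, with 3 anemic mice below every control mouse and none above. The means were 1.39% ± 0.140 and 1.19% ± 0.275 (SD, n = 6 each), a difference that did not pass the exact two-sided Mann-Whitney test (p = 0.240, adjusted p = 0.601 over 5 measures; the smallest p that 924 splits allow is 0.00216).

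Because erythroid cells sit in that denominator, the share was also taken of the kept cells other than erythroid. It was 1.51% ± 0.162 in control and 1.57% ± 0.340 in anemic mice (n = 6 each; exact Mann-Whitney p = 1, adjusted p = 1). Of the anemic mice 3 stood above and 3 below every control mouse. Among dendritic cells, counted as members plus conventional dendritic cells, members were 56.0% ± 3.46 of the total in control and 56.6% ± 6.51 in anemic mice (exact Mann-Whitney p = 0.485, adjusted p = 0.808). Shares are relative, so a change in the number of cells per liver was not measured.

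**Figure D2:**
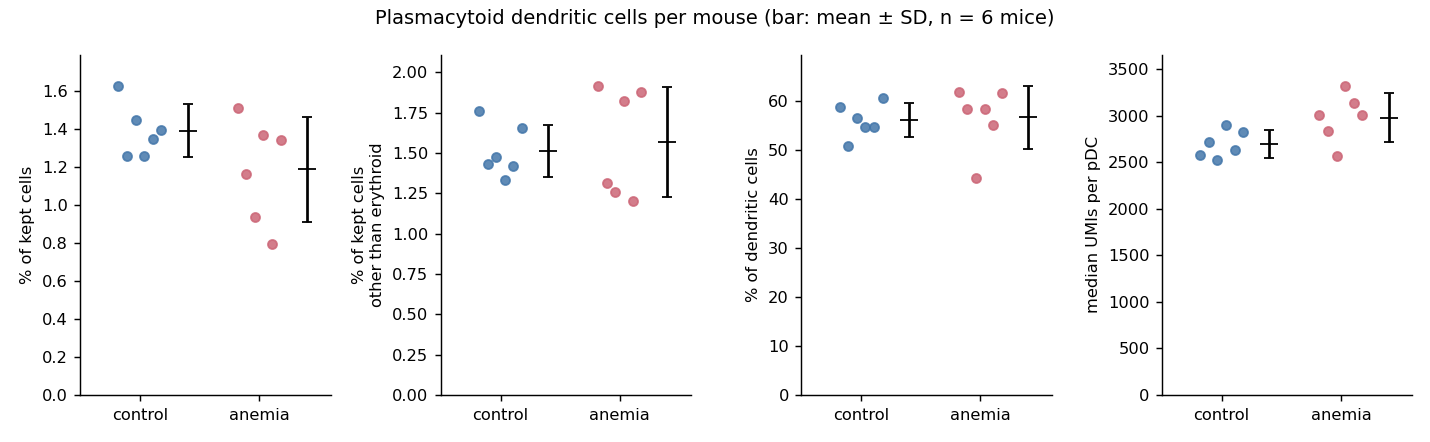
Each point is 1 mouse; the panels give the share of plasmacytoid dendritic cells among kept cells, among kept cells other than erythroid and among dendritic cells, in percent, and the median UMIs per member. Bars are the mean ± SD of 6 mice. The groups overlap in every panel.

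Proliferation was read from Mki67 and Top2a, which are made by dividing cells, in members thinned to 1500 UMIs so that depth was equal. The cycling share ran from 3.14% over 3.70% to 7.14% in control and from 2.39% over 5.31% to 7.22% in anemic mice (exact Mann-Whitney p = 0.699, adjusted p = 0.874). Unthinned, the medians were 6.91% and 8.60%. The median UMIs per member were 2694 ± 147 in control and 2980 ± 261 in anemic mice, where 4 of 6 stood above every control mouse (exact Mann-Whitney p = 0.0649, adjusted p = 0.325). An exact permutation test of the means gave p = 0.0476, which was not adjusted over the 5 measures and is not a call.

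Gene expression was compared on the UMIs of the members summed per mouse. The test covered the 8775 genes that averaged 5 or more UMIs a mouse, of which 22 were called at an adjusted p under 0.05 (edgeR quasi-likelihood test, Benjamini-Hochberg adjustment), 0.251% of those tested, with 7 higher (0.0798%) and 15 lower (0.171%) in anemia. At an unadjusted p under 0.05 stood 823 genes (9.38%), and in 70 genes (0.798%) the groups did not overlap, with anemia above in 30 (0.342%) and below in 40 (0.456%). In bulk sums, fewer cells that use a gene and less RNA per cell cannot be told apart. Values below of single genes in members, given by group or mouse, are CPM on TMM-scaled library sizes with the SD over 6 mice. Those library sizes count only the UMIs of the tested genes. Fold changes are log2 of anemia over control with their SE. Member levels given over all mice together, summed levels of lists and levels in other cells are CPM over all UMIs, without TMM scaling. The scales differ in both respects, and Ccr9 in control members averaged 1485 CPM on the first and 1262 CPM on the second. Levels on different scales cannot be compared directly.

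Both chains of a class II molecule, which displays peptides to CD4 T cells, were among the genes that fell. H2-Aa, the alpha chain of I-A, measured 1290, 1676 and 1789 CPM in control mice (lowest, median, highest) and 851, 994 and 1259 CPM in anemic mice. Every anemic mouse stood below every control mouse, and the gene fell by 0.65 ± 0.10 on the log2 scale (edgeR adjusted p = 0.0058). H2-Ab1, the beta chain of I-A, measured 212, 313 and 368 CPM in control and 163, 184 and 222 CPM in anemic mice. The groups met at 1 control mouse, with 5 anemic mice below every control mouse, and the gene fell by 0.72 ± 0.12 on the log2 scale (edgeR adjusted p = 0.0072). Its call was lost when 1 Siglech UMI was enough for a member (-0.44, adjusted p = 0.151).

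Cd74, the invariant chain that guides class II molecules to endosomes, averaged 10456 ± 977 CPM in control against 7505 ± 1186 CPM in anemic members (log2 fold change -0.48 ± 0.10, edgeR adjusted p = 0.0559), just outside the threshold, and was called by DESeq2 (adjusted p = 0.000773) and limma (adjusted p = 0.00895). H2-Eb1, the beta chain of I-E, stood at 280 ± 56.7 and 187 ± 58.2 CPM (-0.60 ± 0.17, adjusted p = 0.171). It was named after its values were seen. Of the 27 genes of antigen presentation 23 were tested, 2 fell and none rose by edgeR, 6 had an unadjusted p under 0.05, and the list median was -0.08 against 0.01 over all tested genes. The class I genes of the list were not called by edgeR. At 1500 UMIs per cell, H2-Aa was detected in 65.7% ± 3.41 of control and 48.9% ± 2.52 of anemic members.

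The I-A genes lie side by side on chromosome 17, with H2-Aa at chr17:34282744-34287823 on the minus strand and H2-Ab1 at chr17:34257689-34269419 on the plus strand (GRCm38, GENCODE M21). Class II promoters are known for a Y box, the letters CTGATTGG bound by NF-Y. The 250 bases before the start of H2-Aa are printed because H2-Aa has the smallest p-value of the class II genes (RefSeq, GRCm38.p6, chr17:34287824-34288073, minus strand, 5′ to 3′, Y box letters in capitals).
H2-Aa: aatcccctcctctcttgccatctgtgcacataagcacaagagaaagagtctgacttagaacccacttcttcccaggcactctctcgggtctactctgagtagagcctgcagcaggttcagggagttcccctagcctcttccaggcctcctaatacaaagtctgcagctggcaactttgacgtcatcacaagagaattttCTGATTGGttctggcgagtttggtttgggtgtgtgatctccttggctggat
The letters lie 51 to 44 bases before the start. On either strand they occurred in 1258 of 32851 promoters of this length (3.83%). They were also found for H2-Eb1 and H2-Oa, and not for H2-DMa, H2-DMb1, H2-DMb2 and H2-Ob; H2-Ab1 was not analysed here. A match is a run of letters and not a measured site.

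Dnase1l3, a secreted nuclease that digests DNA in microparticles, had the smallest p-value of all tested genes. It measured 305, 403 and 425 CPM in control and 91.5, 163 and 218 CPM in anemic mice, with no overlap. It fell by 1.25 ± 0.14 on the log2 scale (edgeR adjusted p = 0.000242). Endothelial cells of the liver also express Dnase1l3, and over all other kept cells of the same mice it went from 577 to 434 CPM (log2 ratio -0.41). Of the 8 tested endothelial markers, Dnase1l3 was the 1 called by edgeR, and 5 stood above 0 with a median of 0.25, with 2 called by DESeq2 and by limma, 4 of 6 without doublets and 3 of 6 under the stricter rule. Those above 0 included Fabp4 (1.01, adjusted p = 0.277) and Pecam1 (0.35, adjusted p = 0.20), while 3 stood below 0, Dnase1l3 among them. At an unadjusted p under 0.05 stood 5 of the 8. The summed endothelial markers in members, 13 genes of which Dnase1l3 is the highest in control and none is at 0, ran from 566 to 914 CPM in control and from 566 to 731 CPM in anemic mice, and their part in the result was not tested.

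Of the immediate early genes, which cells switch on within minutes of a stimulus or of tissue digestion, the transcription factors Fosb, Klf4 and Jund fell. Fosb went from 326 ± 13.3 to 190 ± 43.6 CPM (-0.77 ± 0.12, edgeR adjusted p = 0.0058), Klf4 from 180 ± 9.93 to 113 ± 23.7 CPM (-0.66 ± 0.12, adjusted p = 0.0242) and Jund from 2992 ± 395 to 2094 ± 249 CPM (-0.51 ± 0.10, adjusted p = 0.0300). In all 3 genes the groups did not overlap. They went the same way over all other kept cells, with log2 ratios of -0.28 for Fosb, -0.26 for Klf4 and -0.38 for Jund. For none of the 3 was a difference from B cells or conventional dendritic cells called. Of the 27 genes of this list, all tested, these 3 fell and none rose by edgeR, with 11 at an unadjusted p under 0.05 and a list median of -0.06; DESeq2 called 4, with Hspa1b higher (adjusted p = 0.0198), and without 1 mouse 1 to 4 were called. Bhlhe40, a repressor that restrains cytokine genes, fell from 407 ± 40.7 to 238 ± 46.2 CPM (-0.76 ± 0.12, adjusted p = 0.0058). Tubb2a, a beta tubulin, fell from 238 ± 33.2 to 135 ± 27.9 CPM (-0.80 ± 0.13, adjusted p = 0.0061). For Bhlhe40 and Tubb2a the log2 ratios over all other kept cells were 0.14 and -0.04. In conventional dendritic cells their changes were -0.38 and -0.31, neither of them called.

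**Figure D3:**
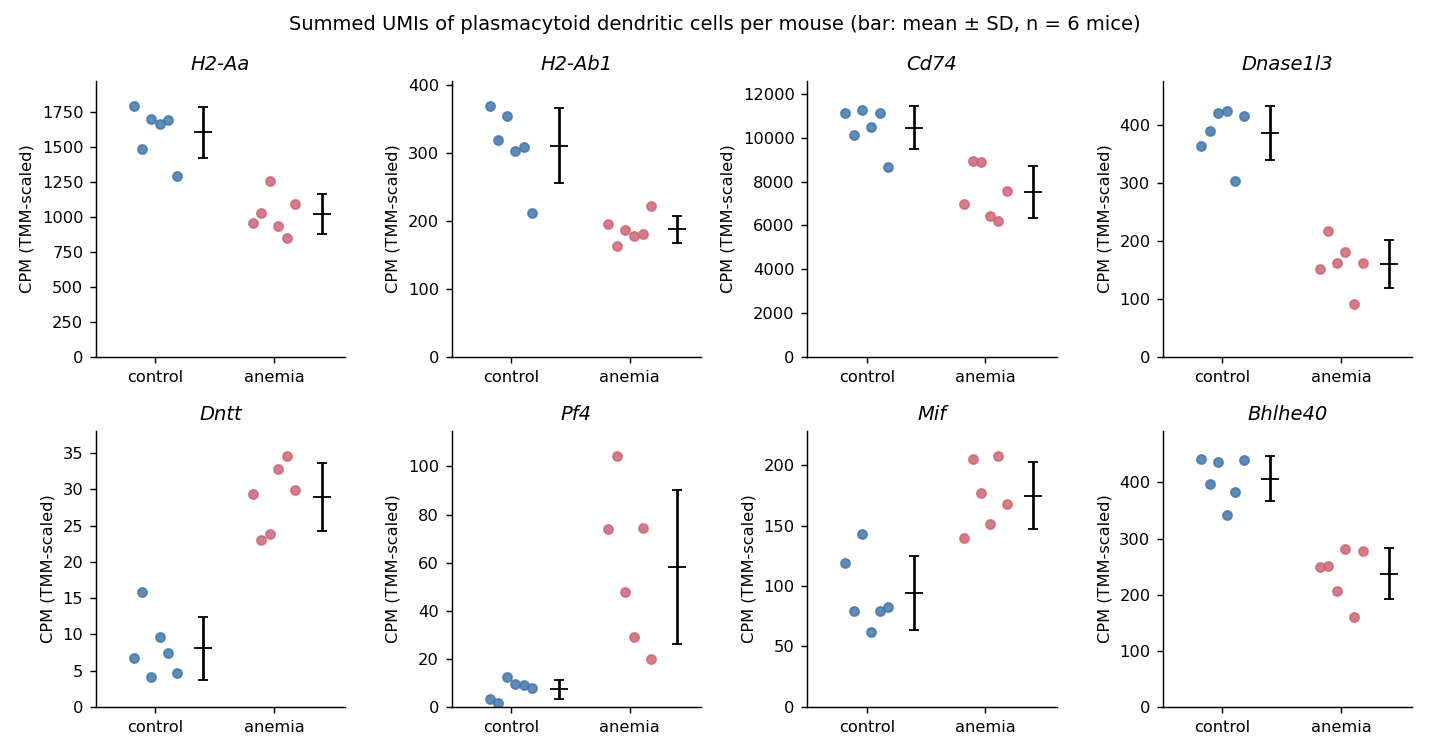
Each point is the summed UMIs of the plasmacytoid dendritic cells of 1 mouse, in CPM on TMM-scaled library sizes, for 8 genes; bars are the mean ± SD of 6 mice. H2-Aa, Dnase1l3 and Bhlhe40 are lower and Dntt and Pf4 higher in every anemic mouse than in every control mouse, while H2-Ab1, Cd74 and Mif overlap.

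Further genes that fell were Dusp18, a phosphatase (38.5 ± 7.46 to 13.7 ± 5.69 CPM, -1.42 ± 0.25), Hpgds, the hematopoietic prostaglandin D synthase (70.2 ± 7.52 to 35.4 ± 6.31 CPM, -0.98 ± 0.15), and Crot, a peroxisomal carnitine transferase (56.7 ± 10.5 to 29.8 ± 10.4 CPM, -0.95 ± 0.20). Hpgds and Crot went the same way over all other kept cells, with log2 ratios of -1.09 and -0.76. Trit1, a tRNA modifying enzyme, and Cpeb4, which binds the tails of mRNAs, complete the count, fell by 0.62 ± 0.12 and 0.58 ± 0.12 on the log2 scale, and were named after their values were seen.

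Dntt, the terminal transferase that adds bases to the joints of immunoglobulin genes, rose. It measured 4.10, 7.06 and 15.9 CPM in control and 23, 29.6 and 34.6 CPM in anemic mice, with no overlap (1.81 ± 0.29, edgeR adjusted p = 0.0058). Members with a Dntt UMI numbered 2 to 8 per control mouse and 11 to 23 per anemic mouse. At 1500 UMIs per cell they were 1.14% ± 0.544 and 3.96% ± 1.28 of members, against 0.0506% of conventional dendritic cells (median depths 2827 and 6164 UMIs). B cells, whose precursors use Dntt, held it in 4.49% ± 0.759 and 3.70% ± 1.67 of cells. Summed B cell markers in members, 12 genes, ran from 303 to 440 CPM in control and from 262 to 382 CPM in anemic mice, and Rag1 was seen in at most 1 member of any mouse. Of the 25 genes of the shared B lymphoid program, 15 were tested, Dntt rose and none fell by edgeR. Of the 15, 9 stood below 0, and the list median was -0.07. Dntt lost its call under the stricter rule (1.66, adjusted p = 0.0675) and in the members with the lower share of hepatocyte and hemoglobin UMIs (2.02, adjusted p = 0.0543).

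Of the genes of hypoxia and glycolysis, Mif and Tpi1 rose. Mif, a cytokine and target of hypoxia signalling, measured 62.0, 81.3 and 143 CPM in control and 140, 172 and 208 CPM in anemic mice, with 5 anemic mice above every control mouse (0.88 ± 0.17, edgeR adjusted p = 0.0246). Tpi1, a glycolytic enzyme, rose from 38.8 ± 8.17 to 69.3 ± 15.1 CPM (0.84 ± 0.18, adjusted p = 0.0490) without overlap. Of the 39 genes of hypoxia and glycolysis 33 were tested and these 2 rose, with none lower and 13 at an unadjusted p under 0.05; neither was called without anemic mouse 2, where the list median was 0.29, or without control mouse 2, 4, 5 or 6. With all mice the list median was 0.37 against 0.01 over all tested genes, and 29 of the 33 stood above 0, against 51.5% of all genes. Gapdh (0.41 ± 0.14, adjusted p = 0.30), Aldoa (0.64 ± 0.18, adjusted p = 0.163) and Pgk1 (0.66 ± 0.15, adjusted p = 0.0620; named after its values were seen) were not called by edgeR, while Pgk1 was by DESeq2 (adjusted p = 0.0173) and limma (adjusted p = 0.0398). Mif and Tpi1 went the same way over all other kept cells of the same mice (log2 ratios 0.87 and 0.80).

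Transcripts of other cell types were among the called genes. Pf4, a platelet chemokine, measured 1.77, 8.54 and 12.3 CPM in control and 19.9, 60.9 and 104 CPM in anemic members (2.95 ± 0.43, edgeR adjusted p = 0.0057). The highest single member held 19, 24, 7, 13, 25 and 2 Pf4 UMIs in anemic mice 1 to 6. All members of those mice held 53, 59, 24, 23, 30 and 12, and no control member held more than 2. A Pf4 UMI was found in 20 control and 68 anemic members, of which 5 and 32 also held another platelet gene, and 31 of the 88 were called doublets. Leaving out every member with a UMI of another platelet gene, an alternative added after the data were seen, lowered the change to 1.18 (adjusted p = 0.273). Those left out were 39 control and 75 anemic members, picked by genes found together with Pf4. Part of the drop was therefore set by the choice, and the source of Pf4 was not tested. Pf4 went from 3.66 to 23.5 CPM in B cells and from 9.50 to 63.5 CPM in conventional dendritic cells, neither of them called (adjusted p = 0.157 and 0.0823). Over all other kept cells the Pf4 level went from 97.7 to 94.4 CPM (log2 ratio -0.05), and for Nrgn the ratio was -0.20. Nrgn, a calmodulin-binding protein also found in platelets, rose from 5.14 ± 4.13 to 21.7 ± 6.73 CPM (2.04 ± 0.38, adjusted p = 0.0238), and 23 of the 58 members with a Nrgn UMI held a Pf4 UMI. In B cells Nrgn went from 101 to 72.1 CPM (edgeR adjusted p = 0.254). In conventional dendritic cells Nrgn went from 6.00 to 18.2 CPM (edgeR adjusted p = 0.242), and its source in members was not tested. Summed megakaryocyte markers in members, 9 genes, ran from 8.64 to 33 CPM in control and from 27.2 to 207 CPM in anemic mice, with no marker at 0. Without anemic mouse 2, Pf4 kept its call (2.69, adjusted p = 0.0104) and Nrgn did not (1.85, adjusted p = 0.0562).

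Most hepatocyte transcripts in members stood lower in anemia. Of 27 markers 26 were tested, 23 of them below 0 with a list median of -0.58, and by edgeR 1 fell and 1 rose; without doublets 14 of 25 were called, with a median of -0.91. The called markers were Cyp2e1 and Apoc3, and Lect2, which the liver secretes, is not in the list. Lect2 (34.8 ± 14 to 5.58 ± 6.39 CPM, -2.47 ± 0.47) and Cyp2e1 (57.8 ± 18.7 to 11.4 ± 10.0 CPM, -2.34 ± 0.38) fell and Apoc3 (33.7 ± 20.8 to 126 ± 75.6 CPM, 1.89 ± 0.39) rose. Over all other kept cells the log2 ratios were -1.02, -1.71 and 2.10. An Apoc3 UMI was found in 90 control and 195 anemic members. The highest single member held 2, 11, 27, 40, 37 and 44 Apoc3 UMIs in anemic mice 1 to 6. All members of those mice held 48, 25, 46, 94, 80 and 142, and no control member held more than 10. Summed hepatocyte markers in members, 27 genes, ran from 4301 to 13464 CPM in control and from 1595 to 9343 CPM in anemic mice, with no marker at 0. In the members of each mouse with the lower share of hepatocyte and hemoglobin UMIs, Cyp2e1 kept its call (-2.45) and Apoc3 did not (0.97, adjusted p = 0.510). Under the stricter rule Cyp2e1 lost it (-2.03, adjusted p = 0.0560). Summed erythroid markers, 16 genes, ran from 464 to 15884 CPM in control and from 3992 to 33743 CPM in anemic mice, and none of the 8 tested was called by edgeR, DESeq2 or limma, with 2 at an unadjusted p under 0.05. Without the members counted as erythroid, an alternative added after the data were seen, 4 of 5 tested were called (median 1.43), and in the members with the lower share of hepatocyte and hemoglobin UMIs 1 of 4 was. The marker lists of Kupffer cells, monocytes, neutrophils, B cells, T and NK cells, stellate cells, conventional dendritic cells, basophils and mast cells, and plasma cells held no called gene by any of the 3 tools, with 2, 2, 0, 0, 0, 3, 2, 0 and 1 genes at an unadjusted p under 0.05.

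Among the defining genes of the cells, Dntt rose and none fell by edgeR. Of 40 genes of plasmacytoid identity 39 were tested, with 1 called, where 0.251% of all tested genes were, 14 at an unadjusted p under 0.05 against 9.38% of all genes, and the list median was 0.17. DESeq2 called 3, with Ccr9 lower (adjusted p = 0.0333) and Bcl11a higher (adjusted p = 0.0391). Ccr9 measured 1352, 1503 and 1590 CPM in control and 972, 1223 and 1363 CPM in anemic mice, with 5 of 6 anemic mice below every control mouse (-0.29 ± 0.09, edgeR adjusted p = 0.219). Bcl11a, a transcription factor needed for this lineage, measured 321, 406 and 440 CPM in control and 442, 539 and 947 CPM in anemic mice without overlap (0.58 ± 0.15, adjusted p = 0.131). Zeb2 (0.38 ± 0.11, adjusted p = 0.215) and Runx2 (0.55 ± 0.18, adjusted p = 0.281), transcription factors of the lineage and of its exit from the marrow, and Ly6d, a surface protein shared with B cell precursors (0.42 ± 0.12, adjusted p = 0.168), were not called by edgeR. Without anemic mouse 5, which held 2573 CPM of Runx2 against at most 1434 CPM in the other anemic mice, the change of Runx2 was 0.28.

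The machinery for sensing nucleic acids was present and none of it was called. Tlr7 stood at 99.5 ± 12.6 CPM in members, 3.94 ± 3.00 in B cells and 1.35 ± 1.91 in conventional dendritic cells (n = 12 mice). Tlr9 was scarce, at 1.91 ± 1.45 CPM in members, and was not tested. Unc93b1, which carries these receptors to endosomes, stood at 576 ± 53.1 CPM. Irf7, the factor that drives interferon genes, was 241 ± 61.9 CPM in control and 306 ± 139 CPM in anemic members on the TMM scale (0.33 ± 0.23, edgeR adjusted p = 0.697), and 0.08 without anemic mouse 2. Of 29 genes of sensing 23 were tested, with a median of -0.01 and 0 called by edgeR, DESeq2 or limma, and 0 at an unadjusted p under 0.05.

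Type I interferon transcripts of the alpha and beta kind were not detected. The 15 interferon alpha and beta genes in the tables had 0 UMIs in 2579 members, which allows a share of up to 0.116% of members with such a UMI, for counting error only. Ifnk had 7 UMIs and Ifnl2 had 1. The receptor chains Ifnar1 and Ifnar2 stood at 149 ± 18.7 and 676 ± 54.9 CPM (n = 12 mice), and none of the 5 tested genes of this list was called by edgeR, DESeq2 or limma, with 0 at an unadjusted p under 0.05.

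Interferon-stimulated genes, which cells switch on when interferon reaches them, had fold changes above 0 and none was called. Of 62 genes 36 were tested, all 36 had a fold change above 0 against 51.5% of all genes, and the list median was 0.38 against 0.01. By edgeR, DESeq2 and limma 0 were called, with 11 of 36 at an unadjusted p under 0.05; with no filter on low counts edgeR called 4 of 61. Ifi27l2a went from 223 ± 67.6 to 351 ± 136 CPM (0.65 ± 0.22, edgeR adjusted p = 0.284). Isg15 (1.02 ± 0.31, adjusted p = 0.211) and Isg20 (1.44 ± 0.38, adjusted p = 0.147), named after their values were seen, were likewise not called. The summed level of the list ran from 2769 to 4073 CPM in control and from 3097 to 5490 CPM in anemic mice, highest in anemic mouse 2. Without that mouse the median was 0.26 and 33 of 35 tested genes stood above 0. Monocyte markers in members, 13 genes with none at 0, are given beside the list: 6 of 7 tested stood above 0 with a median of 1.01, and their sum ran from 86.2 to 240 CPM in control and from 109 to 603 CPM in anemic mice, again highest in anemic mouse 2. Without doublets the monocyte median was 0.10 and that of the interferon-stimulated genes 0.35, with 34 of 34 above 0.

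**Figure D4:**
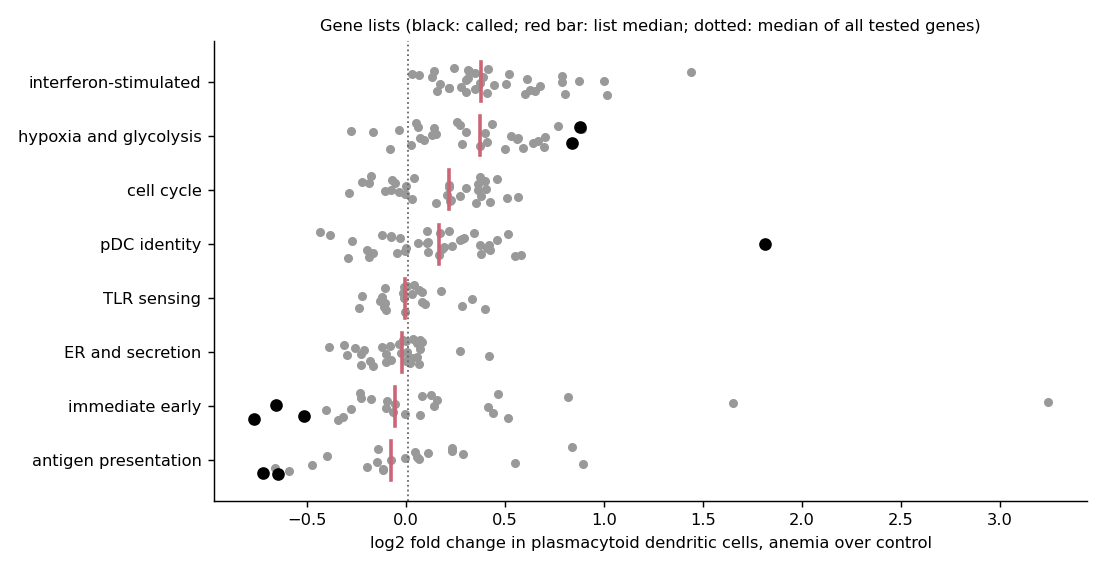
Each point is 1 tested gene of a list, placed by its log2 fold change in plasmacytoid dendritic cells, anemia over control; black points were called, red bars mark list medians and the dotted line the median of all 8775 tested genes. The interferon-stimulated and hypoxia lists lie to the right with medians of 0.38 and 0.37, and the sensing list is centred at -0.01.

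Other lists held no call by edgeR. Cell cycle genes had a median of 0.22 over 32 tested (0 at an unadjusted p under 0.05, 0 by DESeq2 and limma), which turned to -0.25 without doublets, -0.12 under the stricter rule and -0.0013 without anemic mouse 3. Genes of the secretory pathway had a median of -0.02 over 32 (5 at an unadjusted p under 0.05, 0 by DESeq2 and limma). Chemokine and migration genes had a median of 0.05 over 19 (4 at an unadjusted p under 0.05, 1 by DESeq2, 0 by limma). Iron and heme genes had a median of -0.03 over 24, the Bcl2 family 0.06 over 12, cytokine receptors 0.12 over 26 and glucocorticoid response genes 0.09 over 16, with 1, 2, 4 and 2 genes at an unadjusted p under 0.05 and 0 called by DESeq2 or limma.

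Whether these changes differed from those of other cells in the same mice was tested with an interaction term and a term for each mouse. Against B cells, 6 of 12492 genes were called (0.048%). H2-Aa, H2-Ab1 and Cd74 were lower in anemic plasmacytoid dendritic cells while their values in B cells were 0.71, 0.37 and 0.55, none of them called in B cells. The differences were -1.30 ± 0.20, -1.05 ± 0.17 and -0.97 ± 0.17 (edgeR adjusted p = 0.00862, 0.0123 and 0.0229). For Dnase1l3 the difference was -1.30 ± 0.13, with 0.04 in B cells. In conventional dendritic cells Dnase1l3 fell as well (-0.54 ± 0.10, adjusted p = 0.0379), and the difference from them, -0.71 ± 0.14 (adjusted p = 0.0473), was called in 1 of the 12 fits without 1 mouse. For Tent5c, a poly(A) polymerase, it was -1.35 ± 0.17, with -0.42 ± 0.13 in plasmacytoid dendritic cells (adjusted p = 0.219) and 0.91 in B cells (adjusted p = 0.0116). Nrgn differed by 2.58 ± 0.47, with -0.47 in B cells. Dnase1l3, Tent5c and H2-Aa kept these calls in all 12 fits without 1 mouse; H2-Ab1 lost its call without control mouse 1 or 5, Cd74 without control mouse 1, 4 or 5 or anemic mouse 5, and Nrgn in 6 fits.

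Against conventional dendritic cells, defined by Xcr1 and Clec9a or, for 272 of the 2018 cells, by Cd209a and Clec10a with at least 2 UMIs of H2-Ab1, 8 of 9449 genes were called (0.0847%). Class II genes were not among them: H2-Aa was -0.24 in conventional dendritic cells, and the difference of -0.40 ± 0.10 had an adjusted p of 0.163; class II levels of those 272 cells are partly set by their definition. Tagln and Acta2, contractile genes of smooth muscle, differed by 5.56 ± 0.94 and 4.99 ± 0.85. A single member of anemic mouse 4 held 354 of the 361 Acta2 UMIs of its mouse, and a single member of anemic mouse 2 held 130 of 131. Hspa1b, a heat shock protein, differed by 1.98 ± 0.34, and anemic mouse 5 held 128 of the 245 UMIs in anemic members. Plac8, an interferon-responsive leukocyte protein, differed by -1.17 ± 0.21, with 1.48 in conventional dendritic cells (adjusted p = 0.0428), and Dhx40, a helicase, by -1.07 ± 0.20. Plac8 in conventional dendritic cells went from 165 ± 54.4 to 480 ± 299 CPM. Of the 12 fits without 1 mouse, Acta2 kept its call in 8, Hspa1b in 7, Tagln in 6, Plac8 in 5 and Dhx40 in 3. With the replicate block each of them lost it. Leaving out 1 mouse left 0 to 14 calls in this comparison, with 0 when control mouse 4 was left out and 14 without anemic mouse 4.

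**Figure D5:**
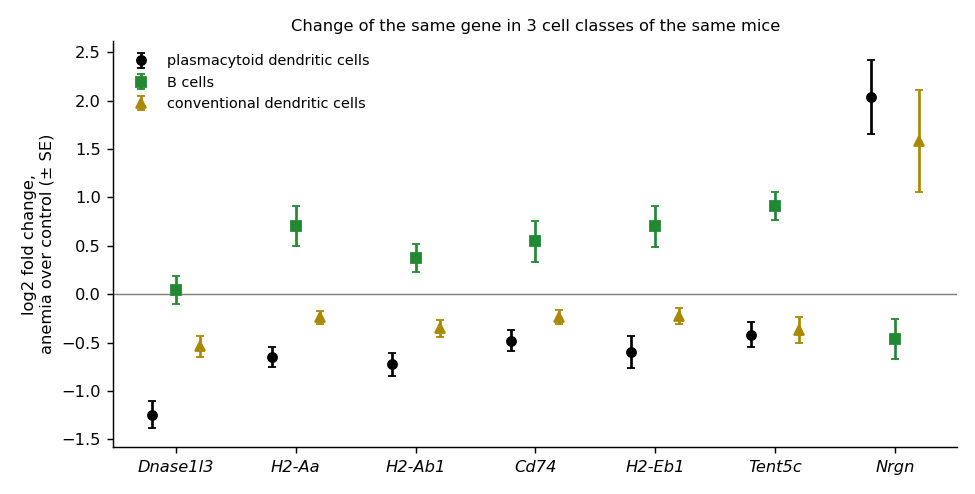
Log2 fold change of anemia over control with its SE for 7 genes, each fitted on its own in plasmacytoid dendritic cells, B cells and conventional dendritic cells of the same 12 mice. H2-Aa lies at -0.65 in plasmacytoid dendritic cells, 0.71 in B cells and -0.24 in conventional dendritic cells.

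Of the 22 called genes, 11 kept their call in each of the 12 fits that left out 1 mouse: Cyp2e1, Dusp18, Dnase1l3, Hpgds, Tubb2a, Fosb, Bhlhe40, H2-Ab1, H2-Aa, Dntt and Pf4. Of these 11, Dnase1l3, Hpgds, Tubb2a, Fosb and H2-Aa also kept it in the 16 other settings. Their adjusted p there reached up to 0.0018, 0.0298, 0.0236, 0.0483 and 0.0487, so Fosb and H2-Aa passed narrowly in at least 1. Dusp18 and Bhlhe40 lost the call in the members with the lower share of hepatocyte and hemoglobin UMIs (adjusted p = 0.142 and 0.0981), as did Pf4 (0.0590) and Dntt (0.0543). Dntt also lost it under the stricter rule (0.0675), as Cyp2e1 did, and H2-Ab1 lost it under the looser rule (0.151). The other 11 lost it in at least 1 fit. Among them, Mif did without anemic mouse 2 or without control mouse 2, 4, 5 or 6 (adjusted p up to 0.0734), and Tpi1 kept its call in 3 fits (up to 0.128). Jund kept it in 7 fits (up to 0.0842), Klf4 in 8 (up to 0.0647), Nrgn in 7 (up to 0.0647), Lect2 in 7 (up to 0.0734), Apoc3 in 5 (up to 0.130), Trit1 in 5, Cpeb4 in 4 and Crot in 1.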

How the data were processed

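Livers of 12 mice were profiled by droplet single-cell RNA sequencing, 1 library per mouse. The deposited values are UMI counts per gene and barcode, made by the authors with Cell Ranger 7.0.0 per the file headers, without normalization; the submitters' processing notes name mm10 and Seurat. The kit version differs between the sources. The notes name no removal of doublets. Barcodes in the files start at 500 UMIs. The members, gene lists and tests were chosen with earlier results of these data known.

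UMIs of members were summed per mouse and compared with edgeR 4.0.16 (quasi-likelihood, TMM; R 4.3.3), without genes of mitochondria or ribosomal proteins and without those averaging under 5 UMIs; adjusted p-values are Benjamini-Hochberg over all genes tested. DESeq2 1.42.0 and limma 3.58.1 (voom with quality weights) were alternatives. On simulated data with 200 changed genes among 8775, the test in plasmacytoid dendritic cells recovered 163, 67 of 100 at an absolute log2 fold change of 1 and 96 of 100 at 2, with 9 calls among unchanged genes. Changes under 1, the size of many called genes, were not simulated, so recovery there is not known. Counts were drawn per mouse, without single cells that hold most UMIs of a gene. Per-mouse shares were compared with the exact Mann-Whitney test (scipy 1.17.1). Conventional dendritic cells and B cells (at least 3 UMIs of Cd79a and Ms4a1) had no Siglech UMI. Erythroid cells held at least 20% hemoglobin UMIs or 2 UMIs of erythroid marker genes. Doublets were called with scrublet (scanpy 1.11.5, 30 components) at 0.8% per 1000 barcodes and kept. Named genes were, by rule, up to 10 called genes per direction with the largest change and at least 20 CPM in 1 group, called and highest members of each list, members of the identity, sensing and interferon lists, and 5 genes per interaction; some of these genes are not reported here. Mice are the replicates; intervals and floors cover counting error only. Coordinates are from GENCODE M21 on GRCm38.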

Additional observations from a re-analysis of the deposited data

Results flagged for a closer look

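Of 54 groups of 6 mice read for a mouse far from the others, 2 held one, where chance gives about 1 in 20. Crot stood at 49.5 CPM in anemic mouse 5, with the next mouse at 30.3 CPM. Nrgn stood at 35.4 CPM in anemic mouse 2, with the next mouse at 19.9 CPM.

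The change in anemia differed from that in B cells, by the test of the difference, for Tent5c (-1.35), Dnase1l3 (-1.30), H2-Aa (-1.30), H2-Ab1 (-1.05) and Nrgn (2.58) on the log2 scale. It differed from that in conventional dendritic cells for Tagln (5.56), Acta2 (4.99), Hspa1b (1.98), Plac8 (-1.17) and Dhx40 (-1.07). None of these last genes kept its call in every fit without 1 mouse, and none did with the replicate block.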

How the results depend on the processing

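The count of 22 called genes became 153 with no filter on low counts, 14 with a mean of at least 20 UMIs, 34 with at most 10% mitochondrial UMIs, 78 without doublets, 37 under the looser rule, 64 with DESeq2, and, in an alternative added after seeing the data, 37 without members counted as erythroid; it ran from 11 to 43 without 1 mouse, lowest without control mouse 4 and highest without anemic mouse 6. Calls against B cells became 53 without doublets and ran from 3 to 63 without 1 mouse, the highest without anemic mouse 6; those against conventional dendritic cells became 15 without doublets and ran from 0 to 14. All 22 genes were called again with DESeq2, with no filter, with library sizes only and with the replicate block, 20 of them without doublets, 21 with limma, 19 under the looser and 13 under the stricter rule; in the cells with fewer hepatocyte and hemoglobin UMIs, 11 were. The cause was not tested.

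Deviations of mice with the same number correlated at r from -0.14 to 0.22 over 4993 genes, with the best match at the same number in 2 of 6. With so few mice, this cannot decide whether the numbers pair them. With the replicate block 59 genes were called, 4 against B cells and 0 against conventional dendritic cells. With that block 3 of the 36 interferon-stimulated genes were called, and the median UMIs per member differed by 286 (exact sign-flip p = 0.0313). That difference, 286, also passed the exact permutation test of means (p = 0.0476), and ran from 217 to 369 without 1 mouse, passing without anemic mouse 3. Differences that changed sign were the share of dendritic cells (-0.069 percentage points without doublets; -0.476 to 3.02 without 1 mouse), the cycling share (-0.205 without doublets) and the share of cells other than erythroid (-0.0170 to 0.126 without 1 mouse); none had passed its test.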
